A study of Rattus norvegicus with 21 samples.

Results

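The 7 genes described here were the transcription factor gene Nfe2l2, which encodes NRF2, and 6 genes of the antioxidant defence, Hmox1, Nqo1, Gclc, Gclm, Cat and Sod2. They were taken as a named list, by 7 Ensembl identifiers, from the 32754 rat genes of the count table. The rule of choice used no measured value, but the list was drawn up with earlier results of these data known. Their symbols rest on that list, because the gene table used here pairs no Ensembl identifier with a symbol. All 7 had enough counts to be tested, among 15225 genes tested in all.

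RNA was measured in full-thickness bladder of male Sprague Dawley rats (genotype WT), whose spinal cord had been cut completely at T8 when they were 6 to 7 weeks old, and of rats without injury. The 7 groups were controls at 0, 2, 8 and 16 weeks and spinal cord injury (SCI) rats at 2, 8 and 16 weeks, with 3 libraries each, and no group received a drug. The titles give each library a code and replicate number of its own but do not say that these are separate animals, so p-values measure the spread between these samples, which may in part be technical. Each library held 8087726 to 15472537 counts (median 9584812). Levels are written as CPM, counts divided by the size of the library in the usual unit for RNA-seq, after TMM scaling (trimmed mean of M-values), which sets most genes equal between libraries. A whole bladder wall holds smooth muscle, urothelium, fibroblasts, vessels and immune cells, and in such bulk RNA fewer cells of a type and less RNA per cell cannot be told apart. The markers of these cell types were not looked up, for want of symbols, so the labelled tissue was not checked against them.

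NRF2 is held in the cytoplasm by KEAP1 and degraded as long as the cell is not under oxidative or electrophilic stress. When KEAP1 is modified by oxidants, NRF2 escapes degradation, enters the nucleus, pairs with small MAF proteins and binds the antioxidant response element, a short DNA sequence near the genes it activates. Because this switch acts on the protein, the Nfe2l2 transcript is not a measure of NRF2 activity, and its targets are commonly read in its place. In the neurogenic bladder, overfilling and repeated ischaemia with reperfusion are known sources of reactive oxygen species.

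The stretches of DNA just before Gclc and Gclm are shown because these genes encode both subunits of 1 enzyme, were the 2 called in the averaged edgeR comparison and varied together over the libraries. They are the 250 bases before the annotated start on the gene's own strand, 5′ to 3′, from RefSeq (rat assembly GRCr8), at chr8:87510226-87510475 (plus strand) for Gclc and chr2:213031885-213032134 (plus strand) for Gclm. Capitals mark letters that fit the core of the antioxidant response element, TGACNNNGC, searched on both strands.
Gclc: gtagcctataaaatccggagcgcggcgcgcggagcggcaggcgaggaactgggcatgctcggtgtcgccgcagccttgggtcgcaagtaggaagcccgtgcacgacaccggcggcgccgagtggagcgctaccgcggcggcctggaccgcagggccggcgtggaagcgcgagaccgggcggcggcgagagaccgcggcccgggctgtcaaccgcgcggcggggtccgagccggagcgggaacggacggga
Gclm: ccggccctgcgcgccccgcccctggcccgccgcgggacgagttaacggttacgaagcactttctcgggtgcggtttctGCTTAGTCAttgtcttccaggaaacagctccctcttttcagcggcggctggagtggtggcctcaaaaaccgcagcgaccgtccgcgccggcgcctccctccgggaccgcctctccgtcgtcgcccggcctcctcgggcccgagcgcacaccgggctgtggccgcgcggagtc

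The Gclm match starts at base -172 relative to the transcription start and lies on the minus strand, where it reads TGACTAAGC. The Gclc window held no match, which says only that these letters are not in it. Windows of 300 bases (250 before and 50 after the start) were given for 6 of the 7 genes, all but Hmox1, and 3 of the 6 held TGACNNNGC, against 12.1% of all 33469 RefSeq windows. The other matches were in Nfe2l2, on the plus strand of the gene from base 39, and in Sod2, at base -35, where the printed strand shows the reverse complement of TGACCCTGC. Both are shown with their flanking bases, so that the 3 matches can be set side by side. The pieces with flanks lie at chr3:81028950-81028971 (Nfe2l2) and chr1:50050185-50050213 (Sod2), each on the minus strand of the assembly.
Nfe2l2: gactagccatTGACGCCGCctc
Sod2: ggcgctgccgGCAGGGTCAgcgcctagct

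The looser form TGANNNNGC, which contains every match of the stricter form, was found in 4 of the 6 windows and in 40.5% of all windows. The additional match was TGAAAGTGC in Nqo1, at base -50. A match of letters is a description and not a measured binding site.

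Across the comparison of SCI with control rats, Gclc rose, and Hmox1, Nqo1 and Cat gave no call. Gclm lay higher by less and passed the averaged edgeR test, and Nfe2l2 lay higher without passing it. Both of these outcomes depended on the method. Gclm missed the threshold in the within-week permutation (adjusted p = 0.0879), and 10 of 21 edgeR fits that left out 1 library kept its averaged call. With the 3 weeks averaged, Gclc was 1.46-fold higher in SCI bladders (log2 fold change 0.55 ± 0.12 SE, adjusted p = 0.00487) and Gclm was 1.16-fold higher (0.21 ± 0.07, adjusted p = 0.0411), both by edgeR's quasi-likelihood F test. Sod2, the mitochondrial superoxide dismutase, lay lower and missed the threshold (-0.15 ± 0.06, adjusted p = 0.0604), a result that depended on the method, as given with its levels. So 2 of the 7 genes were called in the averaged comparison, both higher, where 22.7% of all genes tested were called, 10.4% of all genes as higher. At 2 weeks 0 of 7 were called, at 8 weeks 1 (Gclc) and at 16 weeks 0, against 0%, 8.41% and 5.62% of all genes. At an unadjusted p under 0.05 there were 0 of the 7 at 2 weeks, against 6.67% of all genes, 3 at 8 weeks (Nfe2l2, Gclc and Gclm), against 28.0%, and 3 at 16 weeks (Gclc, Gclm and Sod2), against 26.6%. DESeq2 called 0, 1 and 2 of the 7 at these weeks, and 64, 1960 and 1675 of all genes. The median log2 fold change of the 7 genes at these weeks was -0.04, 0.35 and 0.34, and that of all genes was 0.00, 0.00 and -0.02. The 4 comparisons share libraries with each other, so their values are not independent.

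**Figure D1:**
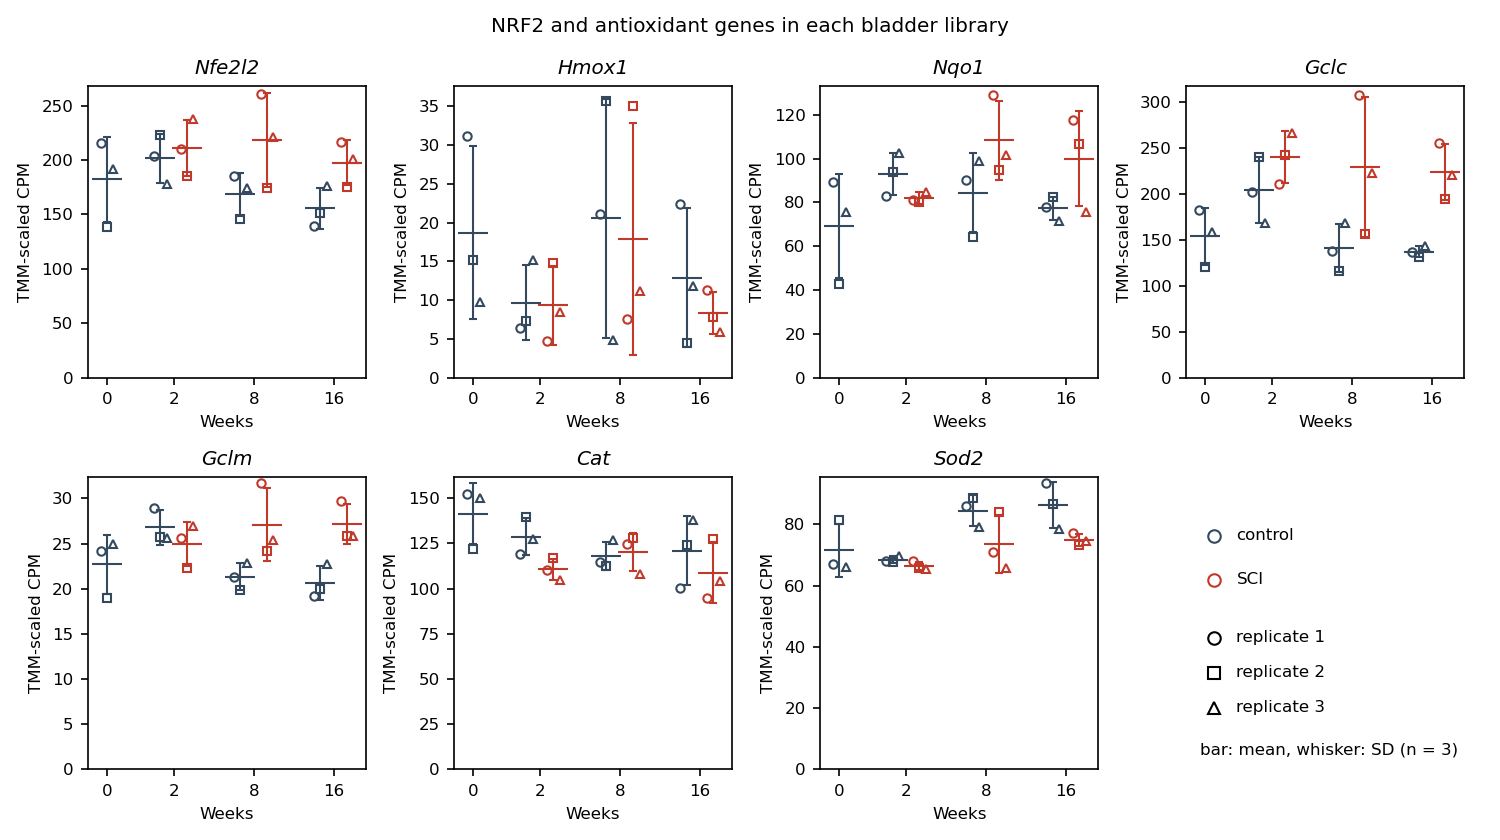
Level of each gene (vertical axis, TMM-scaled CPM from 0) in all 21 libraries by week (horizontal axis), controls in dark blue and SCI in red, with the symbol shape giving the replicate number, the horizontal bar the group mean and the whisker the SD (n = 3). Gclc and Gclm lay higher in every SCI library than in every control at 16 weeks, as 17.6% of all genes did, and Hmox1 ranged from 4.52 to 35.6 CPM.

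Nfe2l2 (ENSRNOG00000001548) was measured at 203, 223 and 178 CPM in controls at 2 weeks and at 210, 185 and 238 CPM after SCI. At 8 weeks the controls held 185, 146 and 174 CPM and the SCI libraries 261, 174 and 221 CPM. At 16 weeks the controls held 140, 151 and 176 CPM and the SCI libraries 217, 175 and 201 CPM. At each of these weeks the groups overlapped, at 16 weeks only between SCI replicate 2 and control replicate 3. The log2 fold change was 0.07 ± 0.16 (SE, adjusted p = 0.992) at 2 weeks, 0.38 ± 0.17 (adjusted p = 0.146) at 8 weeks and 0.34 ± 0.17 (adjusted p = 0.193) at 16 weeks. Of 14 edgeR and DESeq2 alternatives, 2 called the 8-week change and 0 the 16-week change. The 2 were library totals alone (0.57, adjusted p = 0.0471) and the fit without SCI 8 weeks replicate 2 (0.52, adjusted p = 0.0444). Averaged over the weeks the log2 fold change of Nfe2l2 was 0.26 ± 0.10, with a 95% interval of 0.06 to 0.46 and an adjusted p of 0.0554. This call depended on the method: Nfe2l2 passed in 11 of 26 alternatives (adjusted p from 0.0190 to 0.127), among them DESeq2 (0.0375), library totals alone (0.0191) and only the groups compared (0.0277). The exact permutation of SCI and control labels within weeks, two-sided over 8000 arrangements, gave p = 0.017 for Nfe2l2 (adjusted p = 0.0616 over all genes tested).

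Glutamate-cysteine ligase makes gamma-glutamylcysteine, the rate-limiting step towards glutathione, and consists of a catalytic subunit, encoded by Gclc (ENSRNOG00000006302), and a modifier subunit, encoded by Gclm (ENSRNOG00000013409), which raises the catalytic efficiency. Gclc was measured at 203, 241 and 169 CPM in controls at 2 weeks and at 211, 243 and 267 CPM after SCI. These groups overlapped, with control replicate 2 inside the SCI range. The difference at 2 weeks was 0.23 ± 0.21 (log2, SE, adjusted p = 0.931), with a 95% interval from -0.20 to 0.67. With 1 library of the compared groups left out it ran from 0.11 to 0.37 and was called in no such fit.

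At 8 weeks Gclc stood at 138, 116 and 168 CPM in controls and at 308, 156 and 224 CPM after SCI. It rose 1.63-fold (log2 fold change 0.70 ± 0.21, adjusted p = 0.0440), although SCI replicate 2 lay under control replicate 3 and the groups therefore overlapped. At 16 weeks the controls lay close together at 137, 132 and 143 CPM, and the SCI libraries at 256, 195 and 221 CPM were all higher. The fold was again 1.63 (0.71 ± 0.21), but the adjusted p of 0.0522 missed the threshold, although the unadjusted p of 0.00324 was close to the 0.00334 of 8 weeks, where more genes passed. The sizes at 8 and 16 weeks differed by 0.00 ± 0.29 (adjusted p = 1.00).

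Gclm differed by less than Gclc. It was measured at 29.0, 25.7 and 25.7 CPM in controls at 2 weeks and at 25.6, 22.3 and 26.9 CPM after SCI, and the groups overlapped (-0.10 ± 0.12, adjusted p = 0.970). At 8 weeks the controls held 21.3, 19.8 and 22.8 CPM and the SCI libraries 31.7, 24.1 and 25.4 CPM. At 16 weeks they held 19.2, 19.9 and 22.8 CPM against 29.7, 25.9 and 25.9 CPM. At both later weeks every SCI library lay above every control. The log2 fold change was 0.35 ± 0.13 (adjusted p = 0.0871) at 8 weeks and 0.40 ± 0.13 (adjusted p = 0.0638) at 16 weeks. Neither week passed on its own in the edgeR test over all 21 libraries. At 8 weeks Gclm passed in 3 of 14 alternatives, among them library totals alone (0.54, adjusted p = 0.0256) and the replicate number as a block (0.0486). At 16 weeks it passed in 4 of 14, among them DESeq2 (adjusted p = 0.0354) and only the groups compared (0.0443).

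Libraries of SCI and control that do not overlap at a given week are common in these data, so this alone does not single out a gene. At 8 weeks Gclm was the only one of the 7 with every SCI library higher, against 13.9% of all genes, and 0 were lower in every SCI library, against 14.7%. At 16 weeks Gclc and Gclm were higher in every SCI library, against 17.6% of all genes, and Sod2 was lower in every SCI library, against 18.3%. At 2 weeks Cat was lower in every SCI library, against 8.43% of all genes. With 3 libraries against 3, a permutation within 1 week cannot reach a two-sided p under 0.1. Over all weeks the within-week permutation gave an adjusted p of 0.0166 for Gclc and 0.0879 for Gclm, and 24.5% of all genes passed this test. With library totals alone Gclm (adjusted p = 0.0351) and Nfe2l2 (0.0269) passed as well, among 5198 genes in place of 3735.

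**Figure D2:**
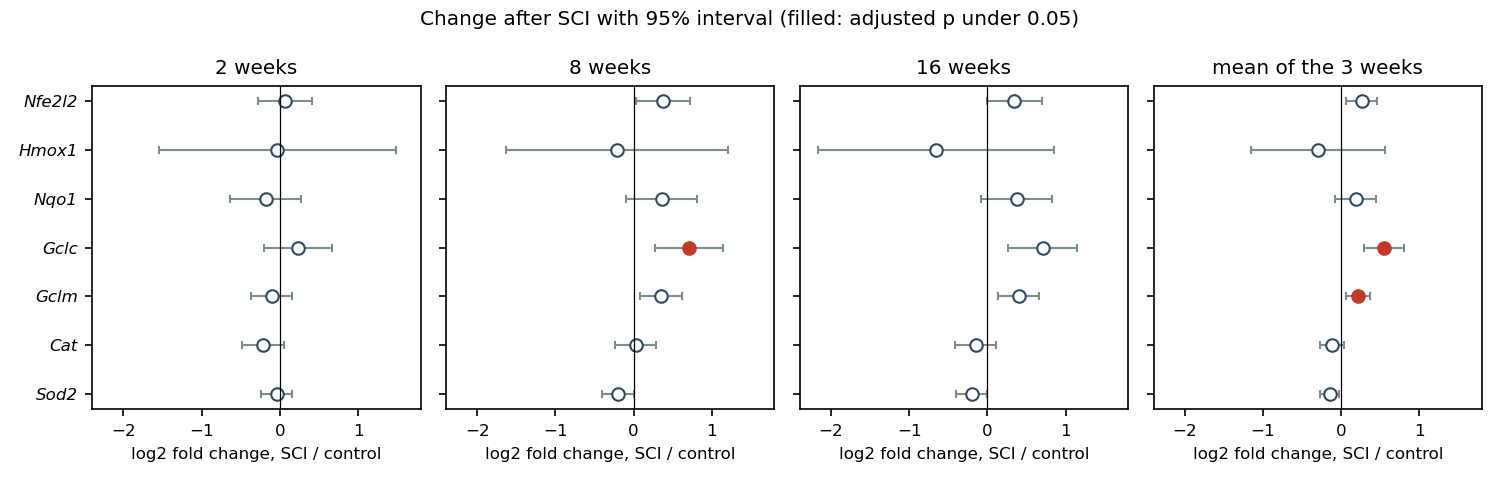
Log2 fold change of SCI over control for each gene (horizontal axis) at 2, 8 and 16 weeks and averaged over them, with 95% intervals from edgeR, filled where the adjusted p is under 0.05. Gclc is filled at 8 weeks (0.70) and in the average (0.55) and Gclm in the average (0.21), while the Hmox1 intervals span zero widely at every week.

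Group means over time are given for Gclc, although no difference between weeks passed the edgeR test over all 21 libraries. Under alternatives Gclc did pass in controls, between 2 and 16 weeks when only the groups compared were fitted, and between 2 and 8 and 2 and 16 weeks by an unadjusted p under 0.05 with a log2 fold change of at least 0.5. The mean of Gclc after SCI was 240 ± 28.2 CPM at 2 weeks, 229 ± 76.2 at 8 weeks and 224 ± 30.9 at 16 weeks (SD, n = 3 each). In controls it was 154 ± 31.1 CPM at 0 weeks, 204 ± 35.9 at 2 weeks, 141 ± 26.2 at 8 weeks and 137 ± 5.86 at 16 weeks. Between 2 and 16 weeks the controls differed by -0.57 ± 0.21 in Gclc (unadjusted p = 0.0129, adjusted p = 0.123), by -0.38 ± 0.13 in Gclm (unadjusted p = 0.00723, adjusted p = 0.105) and by -0.37 ± 0.17 in Nfe2l2 (unadjusted p = 0.0365, adjusted p = 0.185). With Sod2, 4 of the 7 genes had an unadjusted p under 0.05 there, against 23.7% of all genes, and 0 passed after adjustment, against 0.407%. Over the same weeks the SCI rats differed by -0.10 ± 0.21 in Gclc, by 0.12 ± 0.13 in Gclm and by -0.10 ± 0.17 in Nfe2l2, each with an adjusted p of 1.00. These comparisons over time use the same control libraries as the comparisons of SCI with control.

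Whether the change after SCI itself differed between weeks was tested as an interaction, and 0 of the 7 genes passed in any of the 3 interactions by edgeR or by DESeq2. Gclm came nearest, with a change that was 0.45 ± 0.18 larger at 8 than at 2 weeks (unadjusted p = 0.0209, adjusted p = 0.544) and 0.50 ± 0.18 larger at 16 than at 2 weeks (unadjusted p = 0.0111, adjusted p = 0.615). It was the only one of the 7 with an unadjusted p under 0.05 in these interactions, where 8.59% of all genes had one for 8 with 2 weeks, 7.75% for 16 with 2 weeks and 6.63% for 16 with 8 weeks. Over all genes 3, 0 and 0 were called in the interactions of 8 with 2, 16 with 2 and 16 with 8 weeks, or 0.0197%, 0% and 0%, and DESeq2 called 28, 6 and 20. Gclc was called at 8 weeks and not at 2 weeks, but its interaction of 0.47 ± 0.29 (adjusted p = 0.653) does not show that these weeks differ. With 1 library of the compared groups left out, this interaction ran from 0.21 to 0.68 and passed in no such fit.

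Library SCI 8 weeks replicate 2 held the lowest Gclc (156 CPM, the others 308 and 224) and Nfe2l2 (174 CPM, the others 261 and 221) of its group. It was also lowest in Gclm (24.1 CPM, the others 31.7 and 25.4) and Nqo1 (94.9 CPM, the others 129 and 101). In these last genes it lay near replicate 3, with replicate 1 higher. Replicate 2 held the highest Hmox1 (35.0 CPM, the others 7.55 and 11.1) and Sod2 (84.1 CPM, the others 71.1 and 65.7). Without it, 2585 of all genes tested were called at 8 weeks, against 1281 with all libraries, and 4 of the 7 were among them: Gclc rose by 0.92 (log2, adjusted p = 0.00749), Nfe2l2 by 0.52 (adjusted p = 0.0444) and Gclm by 0.42 (adjusted p = 0.0427), and Sod2 fell by 0.30 (adjusted p = 0.0393). Without SCI 8 weeks replicate 1, the library highest in Gclc, only 32 of all genes and 0 of the 7 were called, and the change was 0.44 in Gclc (adjusted p = 0.264), 0.22 in Gclm (0.382), 0.24 in Nfe2l2 (0.498) and -0.17 in Sod2 (0.420). The Gclc call at 8 weeks was also lost without SCI replicate 3 (log2 fold change 0.73, adjusted p = 0.117) and without control replicates 1 (0.70, adjusted p = 0.0972) and 2 (0.58, adjusted p = 0.150) of that week, against a change of 0.70 with all libraries. In all, 7 of the 21 fits that each left out 1 library kept it. The averaged Gclc change was called in all 21 such fits, at 0.46 to 0.62 and adjusted p from 0.000805 to 0.0137, and that of Gclm in 10 of 21, with adjusted p from 0.0219 to 0.0979.

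**Figure D3:**
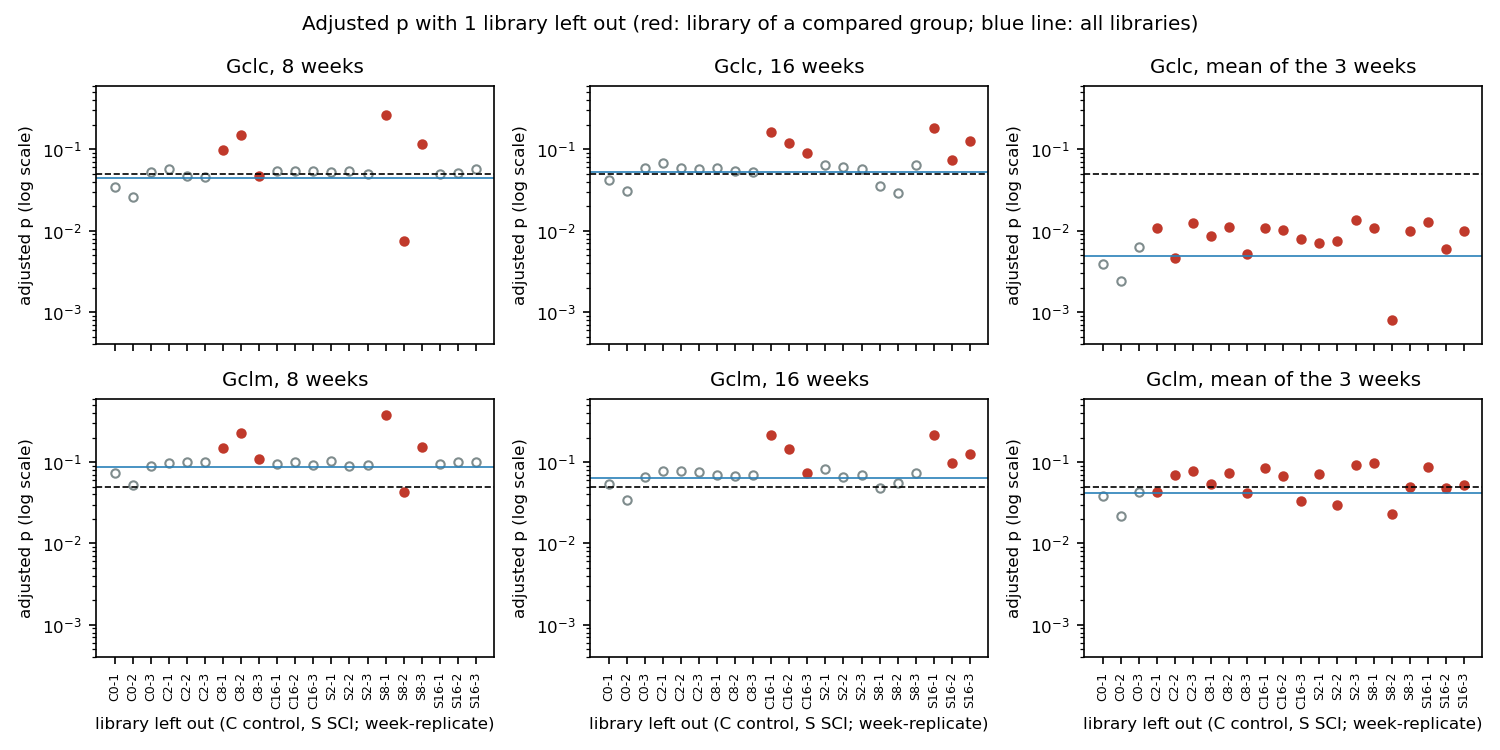
Adjusted p (vertical axis, log scale) of Gclc and Gclm at 8 weeks, at 16 weeks and averaged when each of the 21 libraries is left out in turn (horizontal axis), red where the library belongs to a compared group, with the value of all libraries as a blue line and 0.05 dashed. For averaged Gclc all 21 points lie under 0.05, and for Gclc at 8 weeks 7 do.

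Nqo1 (ENSRNOG00000012772) encodes NAD(P)H quinone dehydrogenase, which reduces quinones fully and so keeps them out of redox cycling, and it is a much used readout of NRF2. It was measured at 82.9, 93.7 and 102 CPM in controls at 2 weeks and at 81.0, 80.0 and 84.9 CPM after SCI. At 8 weeks the controls held 90.4, 64.1 and 99.0 CPM and the SCI libraries 129, 94.9 and 101 CPM. At 16 weeks the controls held 77.7, 82.4 and 71.6 CPM and the SCI libraries 117, 107 and 75.7 CPM. The groups overlapped at each week. The log2 fold change was -0.18 ± 0.21 at 2 weeks, 0.36 ± 0.22 at 8 weeks and 0.37 ± 0.22 at 16 weeks (adjusted p = 0.970, 0.289 and 0.275). With 1 library of the compared groups left out, the Nqo1 change ran from 0.20 (without control replicate 2) to 0.49 at 8 weeks and from 0.24 (without SCI replicate 1) to 0.53 at 16 weeks, and it was called in no such fit. The average of 0.18 ± 0.12 had a 95% interval of -0.08 to 0.44, so a rise of the size found for Gclm was within it.

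Hmox1 (ENSRNOG00000014117), heme oxygenase 1, breaks heme down to biliverdin, iron and carbon monoxide and is also strongly made by macrophages that clear red cells. It was the most variable of the 7. The controls held 6.42, 7.27 and 15.2 CPM at 2 weeks, 21.1, 35.6 and 4.84 CPM at 8 weeks and 22.4, 4.52 and 11.8 CPM at 16 weeks. The SCI libraries held 4.76, 14.8 and 8.42 CPM at 2 weeks, 7.55, 35.0 and 11.1 CPM at 8 weeks and 11.2, 7.86 and 5.89 CPM at 16 weeks. High and low libraries occurred in controls and SCI alike, and the 0-week controls, at 31.2, 15.2 and 9.70 CPM, spread as widely. The highest library, at 311 counts, held 7.89 times the CPM of the lowest, at 44 counts. Its within-group SD of 0.98 on the log2 scale exceeded that of 99.2% of the genes tested, whose median was 0.22. The averaged log2 fold change of -0.30 ± 0.41 (adjusted p = 0.621) had a 95% interval from -1.16 to 0.55, which includes the averaged change of Gclc.

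Cat and Sod2 act on the oxidants themselves. Sod2 (ENSRNOG00000019048) turns superoxide into hydrogen peroxide in mitochondria, and Cat (ENSRNOG00000008364), the peroxisomal catalase, breaks hydrogen peroxide down to water and oxygen. Sod2 was measured at 68.0, 67.6 and 69.7 CPM in controls at 2 weeks and at 68.0, 65.9 and 65.3 CPM after SCI. At 8 weeks the controls held 86.0, 88.6 and 79.1 CPM and the SCI libraries 71.1, 84.1 and 65.7 CPM, and at 16 weeks 93.7, 86.6 and 78.6 CPM against 77.1, 73.3 and 74.7 CPM. Only at 16 weeks were the SCI libraries all lower.

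The log2 fold change of Sod2 was -0.04 ± 0.10 at 2 weeks, -0.20 ± 0.10 at 8 weeks and -0.20 ± 0.10 at 16 weeks (adjusted p = 0.991, 0.181 and 0.184). The averaged edgeR change of Sod2 was called in 5 of 26 alternatives (adjusted p from 0.0139 to 0.499), among them only the groups compared (0.0386), the replicate block (0.0417) and the fits without control 16 weeks replicate 3 (0.0375) or SCI 8 weeks replicate 2 (0.0139). With library totals alone it was -0.04 averaged (adjusted p = 0.499) and -0.02 at 8 weeks (0.884). In the within-week permutation Sod2 passed, with a mean difference of -0.15 and an adjusted p of 0.0361, whereas the edgeR test of the average gave 0.0604. This permutation call was lost when libraries were scaled by their totals alone (-0.04, adjusted p = 0.401). It was also lost in 9 of the 18 permutations that left out 1 library, namely any control of 8 weeks, any SCI library of 16 weeks, SCI 2 weeks replicate 3 or SCI 8 weeks replicate 1 or 3, with adjusted p from 0.0522 to 0.101. RefSeq lists a Sod2 pseudogene, so reads may have been shared between copies. Sod2 was the least variable of the 7 within groups, with an SD of 0.11 on the log2 scale, at percentile 14.8 of the genes tested. In controls its difference between 16 and 2 weeks was 0.34 ± 0.10, opposite in sign to that of Gclc (unadjusted p = 0.00251, adjusted p = 0.0753), and it was called there by DESeq2, with the replicate block, without the 0-week controls and with only the groups compared.

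Cat was measured at 119, 139 and 128 CPM in controls at 2 weeks and at 110, 117 and 105 CPM after SCI, with every SCI library lower. The log2 fold change was -0.22 ± 0.13 (adjusted p = 0.853), and 0 genes of all those tested were called at 2 weeks by edgeR, 1016 (6.67%) had an unadjusted p under 0.05 and 64 were called by DESeq2. At 8 weeks it held 115, 113 and 127 CPM in controls and 125, 128 and 108 CPM after SCI, and at 16 weeks 100.4, 124 and 138 CPM against 94.5, 127 and 104 CPM. The groups overlapped at both weeks, with log2 fold changes of 0.02 ± 0.13 and -0.15 ± 0.13 (adjusted p = 0.923 and 0.459). The 8-week change ran from -0.02 to 0.21 over 14 alternatives, and the averaged change from -0.16 to -0.01 over 26. Cat was called in 0 of these. With 1 library of the compared groups left out, the Cat change at 16 weeks ran from -0.29 (without SCI replicate 2) to -0.05 (without control replicate 3), and it was called in no such fit. The 95% interval of the average, -0.27 to 0.04, leaves out a rise of the size found for Gclc.

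In the 0-week controls, the group before any injury, Gclc stood at 182, 121 and 159 CPM, Gclm at 24.2, 19.0 and 25.0 CPM and Nfe2l2 at 216, 139 and 192 CPM. Nqo1 stood at 89.5, 42.9 and 75.4 CPM there, and replicate 2 was the lowest of all 21 libraries for Nqo1, Gclm and Nfe2l2. Cat was highest in this group (152, 122 and 150 CPM), and Sod2 stood at 66.9, 81.4 and 66.2 CPM. When the 7 groups were ordered by mean level, neighbours in the order overlapped for every gene except 1 pair in Sod2, SCI at 16 weeks under control at 8 weeks. The order for Gclc ran from controls at 16, 8, 0 and 2 weeks to SCI at 16, 8 and 2 weeks, and Gclm and Nfe2l2 also had the controls at 16, 8 and 0 weeks lowest. Comparisons of controls at 2 with 0 weeks, 8 with 2 and 16 with 8, and of SCI rats between weeks, called 0 of the 7 genes by edgeR and by DESeq2. The share of all genes called by edgeR was 0%, 0% and 0.0788% in controls, and in SCI rats 0.0131% at 8 versus 2 weeks, 0% at 16 versus 8 and 0.0460% at 16 versus 2. DESeq2 called 45, 269 and 105 of all genes in these comparisons of controls and 22, 1 and 25 in those of SCI rats. By unadjusted p under 0.05, 3 of the 7 differed between controls at 8 and 2 weeks (Gclc by -0.54, Gclm by -0.33 and Sod2 by 0.31), against 18.9% of all genes, and 0 differed in the others, against 13.4% of all genes (controls, 2 versus 0), 9.50% (controls, 16 versus 8), 4.49% (SCI, 8 versus 2), 1.81% (SCI, 16 versus 8) and 5.23% (SCI, 16 versus 2).

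Of the 7 genes, Nfe2l2, Gclc, Gclm and Nqo1 were positively correlated with each other. Over the 21 libraries the Pearson correlation of log2 CPM was 0.88 between Nfe2l2 and Gclc, 0.87 between Nfe2l2 and Gclm and 0.84 between Gclc and Gclm. Nqo1 correlated with Nfe2l2 at 0.62, with Gclc at 0.62 and with Gclm at 0.68. After each group's mean was subtracted, which takes out the differences between groups, the first 3 values were 0.86, 0.84 and 0.72. Sod2 correlated at -0.75 with Nfe2l2, -0.72 with Gclc, -0.66 with Gclm and -0.28 with Nqo1, although with scaling by library totals alone these were -0.43, -0.38, -0.34 and -0.06. Cat stood at 0.01 with Nfe2l2, or 0.35 with library totals alone, and Hmox1 at -0.33, or -0.26.

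**Figure D4:**
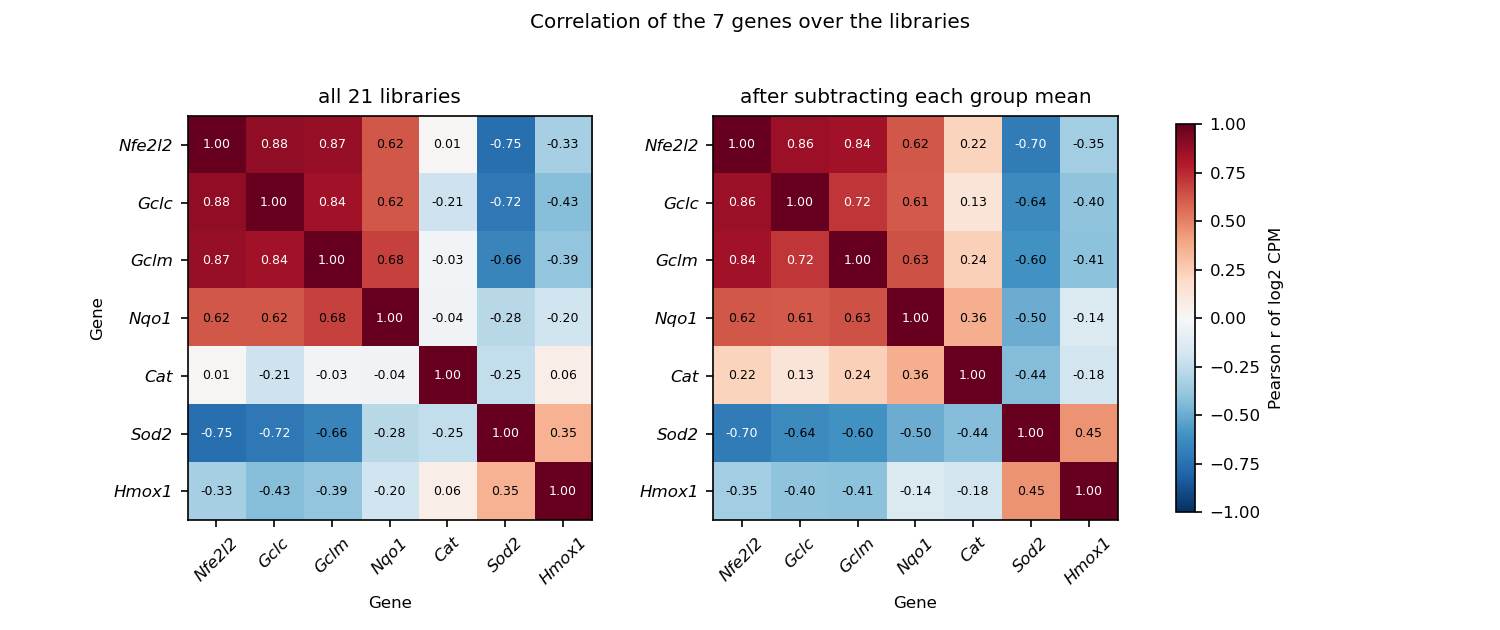
Pearson correlation of log2 CPM (colour, -1 to 1) between the 7 genes (both axes) over all 21 libraries on the left and after subtracting each group's mean on the right. Nfe2l2, Gclc, Gclm and Nqo1 form a positive block (0.62 to 0.88 on the left), Sod2 is negative to all 4, and Cat runs from -0.21 to 0.01 with them on the left and from 0.13 to 0.36 on the right.

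These correlations are descriptions over libraries that share groups, depth and cell makeup. Many genes reached such values: 4.64% of all other genes correlated with Nfe2l2 above 0.8, 3.41% with Gclc and 2.13% with Gclm. Negative values were common too, with 20.3% of all genes below -0.5 with Nfe2l2, 20.9% with Gclc and 18.5% with Gclm. Among the 15224 other genes ranked by their correlation with Nfe2l2, Gclc came 184th, Gclm 286th and Nqo1 1951st. Nqo1 came 1936th for Gclc and 1151st for Gclm, while Gclm came 67th for Nqo1. The gene most like Nfe2l2 was ENSRNOG00000016753 (r = 0.97, mean 440.2 CPM) and the gene most like Nqo1 was ENSRNOG00000021528 (r = 0.86, mean 31.1 CPM). The other genes of the pathway could not be looked up by symbol and were not analysed here.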

How the data were processed

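Per the labels and the methods of the study, RNA of rat bladder, 21 libraries, was freed of ribosomal RNA, made into stranded libraries and sequenced as 51-base read pairs. The submitters' processing notes name Trim Galore 0.6.10, STAR 2.7.10a, featureCounts 2.0.3 and the build Rnor_6.0. The values the authors deposited are raw counts per Ensembl gene, with 2 flow cells combined. The annotation release and strand setting are not given in the sources used here, so overlapping or antisense genes and copies may share reads. All libraries carry 1 batch label.

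Genes were filtered with filterByExpr (15225 kept of 32754) and scaled by TMM (factors 0.903 to 1.09), and edgeR 4.0.16 (R 4.3.3) fitted all 21 libraries with 7 group means and 14 residual degrees of freedom. Each of 14 comparisons was tested by the quasi-likelihood F test with Benjamini-Hochberg adjustment over all genes and a threshold of 0.05. SCI and control labels were also permuted exactly within weeks (8000 arrangements, smallest p 0.00025) on log2 CPM with a prior count of 2. Replicates within groups differed by more than sampling noise (chi-square per degree of freedom 7.22 to 59.9). Of the 7 genes Hmox1 had the fewest counts, 43 to 367 in a library. The code was tested on simulated data. Promoter windows and motifs came from RefSeq (GRCr8), and coordinates are of that build only. Alternatives were DESeq2 1.42.0, RLE factors, library totals alone, no count filter, CPM above 1 in at least 3 libraries, only the groups compared, an unadjusted p with a log2 fold change of at least 0.5, a replicate block and each library left out. Fits that dropped the 0-week controls, or 1 library outside the comparison, were chosen after seeing the data. All 7 genes are named whatever their values. The 7 genes and the lists were chosen with earlier results of these data known.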

Additional observations from a re-analysis of the deposited data

How the results depend on the processing

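The averaged Gclc change was called in 26 of 26 alternatives that used an adjusted p, with adjusted p from 0.000224 to 0.0137, that of Gclm in 14 of 26 (0.0117 to 0.0979) that of Nfe2l2 in 11 of 26 and that of Sod2 in 5 of 26. For this comparison, leaving out the 0-week controls and fitting only the groups compared are the same fit. The Gclc change at 8 weeks was called in 9 of 14 alternatives (0.00749 to 0.264), that of Gclm in 3 of 14, and the 16-week changes of Gclc and Gclm in 4 of 14 each. These tallies include a fit with 1 library left out only where that library belonged to a compared group. Over all 21 such fits, the Gclc call was kept in 7 at 8 weeks, and Gclc passed in 4 at 16 weeks. Gclm passed in 1 of 21 at 8 weeks and in 2 of 21 at 16 weeks.

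The number of the 7 genes called is given with the number of all genes called in brackets. At 8 weeks (1 [1281] as reported) it was 3 [3088] with library totals alone, 0 [322] with only the groups compared, 2 [1783] with the replicate number as a block and 0 to 4 [32 to 2585] with 1 library left out. At 16 weeks (0 [855]) it was 2 [1675] with DESeq2, 2 [2105] with only the groups compared, 1 [2287] by unadjusted p with a fold minimum, 2 [1307] with the replicate block, 2 [2086] without the 0-week controls and 0 to 2 [16 to 1729] with 1 library left out. Averaged (2 [3454]), it was 3 [3916] with DESeq2, 3 [4924] with library totals alone, 1 [3035] with no count filter, 4 [4395] with only the groups compared, 1 [1677] by unadjusted p with a fold minimum, 4 [3793] with the replicate block, 4 [4395] without the 0-week controls and 1 to 4 [2442 to 4368] with 1 library left out. In the within-week permutation (2 [3735]) it was 3 [5198] with library totals alone and 1 to 4 [2783 to 4283] with 1 library left out. In controls at 16 versus 2 weeks (0 [62]) it was 1 [899] with DESeq2 (Sod2), 2 [1600] with only the groups compared (Gclc and Sod2), 1 [1896] by unadjusted p with a fold minimum (Gclc), 1 [502] with the replicate block (Sod2) and 1 [1034] without the 0-week controls (Sod2). By unadjusted p with a fold minimum it was also 1 [1489] in controls at 8 versus 2 weeks (Gclc) and 1 [845] in the interaction of 16 with 2 weeks (Gclm). The cause of these shifts was not tested. The labels do not say that replicate numbers mark a shared animal or day. Of 63 same-numbered pairs, 16 deviated together (r over 0.1), and 11 of 21 libraries correlated best with their own number. No chance level was computed for these counts, so they cannot decide whether the numbers pair the libraries.

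The log2 change turned sign with a library left out for Hmox1 at 2 weeks (-0.54 to 0.44), 8 weeks (-1.14 to 0.46), 16 weeks (-1.05 to 0.033) and in the permutation (-0.467 to 0.0079), for Nfe2l2 at 2 weeks (-0.028 to 0.15) and for Cat at 8 weeks (-0.019 to 0.10), none of them called. Scaling by library totals alone moved the median of all genes by 0.19 at 8 weeks, 0.10 at 16 weeks and 0.11 averaged, and turned no sign among the 7 genes. Counting error is largest for Hmox1, which rests on 43 to 367 counts.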

Other observations

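The balance of the transcripts of both glutamate-cysteine ligase subunits differed between libraries. The ratio of Gclc to Gclm counts in a library needs no scaling between libraries, although gene length sets its absolute value. After SCI it was 9.68 ± 1.36 at 2 weeks, 8.33 ± 1.68 at 8 weeks and 8.23 ± 0.61 at 16 weeks (SD, n = 3 each). In controls it was 6.76 ± 0.68 at 0 weeks, 7.65 ± 1.51 at 2 weeks, 6.58 ± 0.76 at 8 weeks and 6.68 ± 0.43 at 16 weeks. At 16 weeks the SCI libraries (7.52 to 8.61) lay above the controls (6.30 to 7.14), while at 2 and 8 weeks the groups overlapped, at 8 weeks through SCI replicate 2 at 6.47. This ratio was chosen after the values had been seen and was not tested.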
